A study of Mus musculus with 27 samples.

Results

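The 10 genes described here encode cytosolic sulfotransferases of the mouse: Sult1a1, Sult1b1, Sult1c2, Sult1d1, Sult1e1, Sult2a1, Sult2a2, Sult2a8, Sult3a1 and Sult5a1. They were taken by symbol from a table of 43346 genes, all 10 were found, and all 10 were among the 14482 genes with enough counts to be tested. The table holds RNA-seq of hepatocytes, the main cell type of the liver, from female mice of 12 weeks. There were 27 libraries, 3 from each of 9 inbred strains. The wild-derived strains were PWK/PhJ, CAST/EiJ and WSB/EiJ, and the laboratory strains were A/J, NZO/HlLtJ, C57BL/6J, NOD/ShiLtJ, DBA/2J and 129S1/SvImJ. No transgene or agent is named in the labels, so the strain is the only difference between groups that they give, and the wider study related such differences to chromatin marks and DNA methylation, which were not analysed here. The labels call the libraries biological replicates; where they do not come from separate mice, the p-values measure only the spread between these libraries.

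Cytosolic sulfotransferases move a sulfonate group from the donor PAPS to hydroxyl or amino groups of hormones, bile acids, drugs and dietary phenols. The sulfated product is usually more soluble in water, is often inactive as a hormone, and leaves the hepatocyte by transporters. The SULT1 enzymes act mainly on phenols, catecholamines, thyroid hormones and estrogens, and the SULT2 enzymes on hydroxysteroids and bile acids. SULT3A1 acts on amines. In mouse liver Sult2a1, Sult2a2 and Sult3a1 are known to be higher in females than in males, and all mice here were female.

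Library totals ran from 17015932 to 35078483 counts, so that 1 count was worth 0.0253 to 0.0516 CPM (CPM, counts scaled to the library size after TMM correction, is the unit of all levels below). All 10 hepatocyte markers were detected, and their sum was at least 1e+05 CPM in every library. Sums over the markers of other cells were lower, at 30.8 to 380 CPM for Kupffer cells (liver macrophages), 64.3 to 824 CPM for liver endothelial cells, 21.5 to 114 CPM for stellate cells and 2.22 to 36.6 CPM for erythroid cells. PWK/PhJ replicate 1 held the highest sums for endothelial cells (824 CPM against 247 and 295 in the other PWK/PhJ libraries) and Kupffer cells (380 CPM against 130 and 129). In that library 8 of the 10 sulfotransferases lay below the PWK/PhJ mean; the part of these cells in the values was not tested. Fewer cells of a type and less RNA per cell cannot be told apart in bulk RNA.

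All 10 genes differed among the 9 strains by edgeR's quasi-likelihood F test over all strains, with Benjamini-Hochberg adjusted p-values from 1.74e-13 for Sult3a1 to 0.0017 for Sult2a8. Such a call was common, since 74.2% of all genes tested passed. The size of the difference is the range between the highest and the lowest strain mean of log2(CPM + 0.5). Its median was 4.33 over the 10 genes and 0.941 over all genes tested, and 7 of the 10 lay above the upper decile of all genes, 2.36. The strain accounted for a median of 93% of the variance in log2 CPM of the 10 genes, against 66.6% for all genes tested. This share was not adjusted for the number of strains, so it would not vanish without a strain effect. The 3 genes below the decile, Sult1a1, Sult1d1 and Sult2a8, were abundant in every strain. With 0.1 in place of 0.5 the median range of the 10 genes was 4.71, and with 2 it was 3.83.

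**Figure D1:**
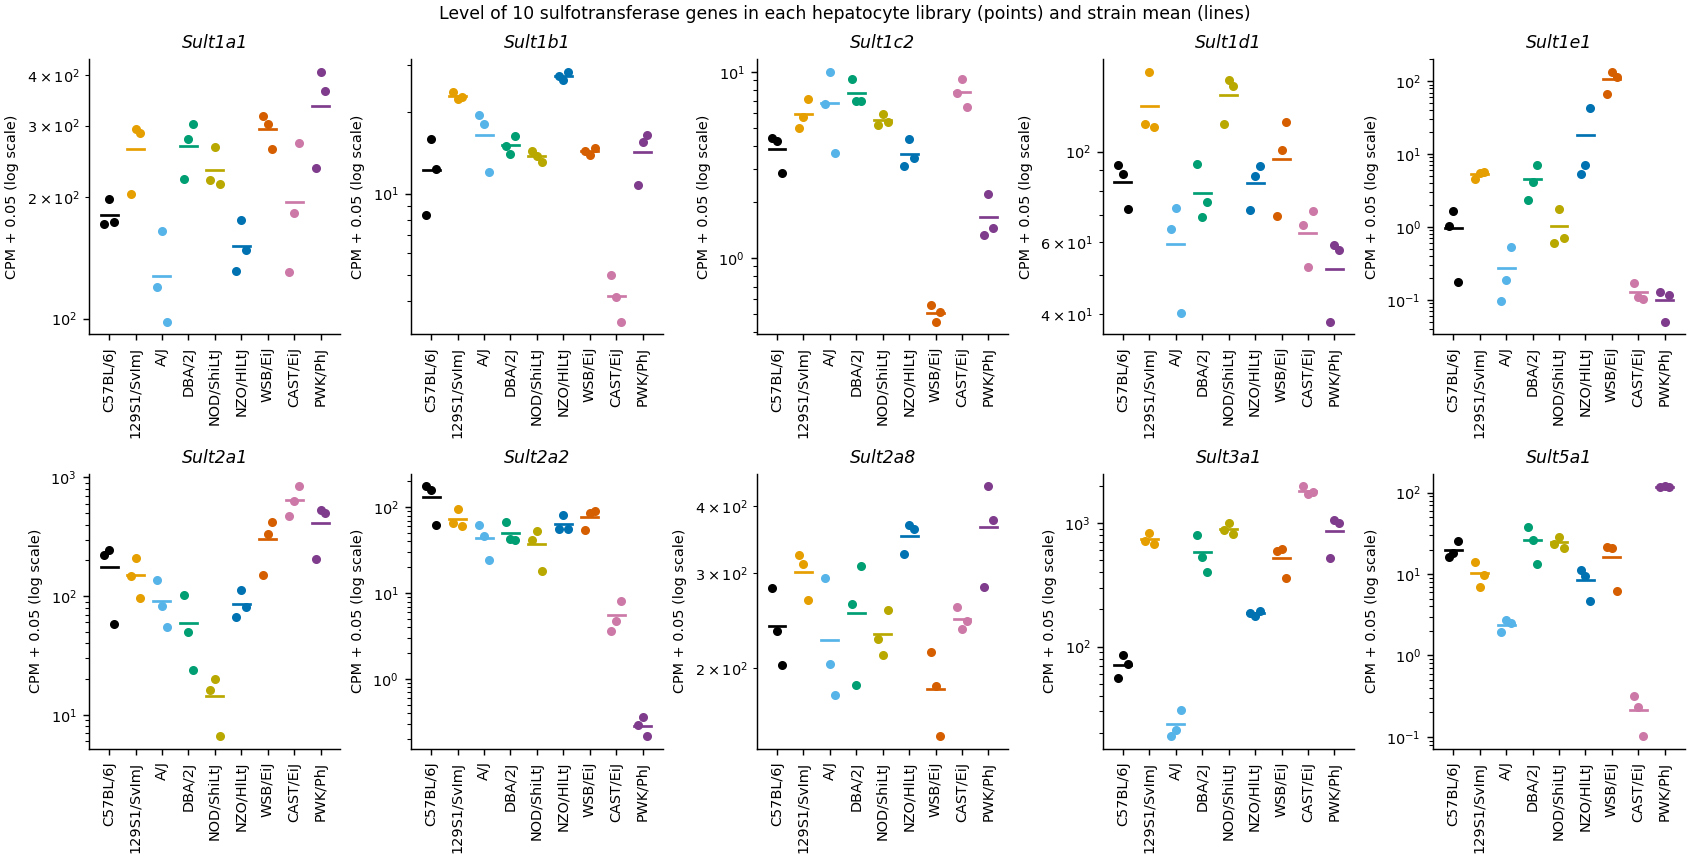
CPM + 0.05 (log scale) of the 10 sulfotransferase genes in each of the 27 libraries (points, coloured by strain) with the mean of the 3 libraries of a strain (lines). Sult1a1, Sult1d1 and Sult2a8 span a narrow band, while Sult1e1, Sult2a2 and Sult5a1 fall close to 0 in some strains: 0.04875 CPM for Sult1e1 and 0.2383 CPM for Sult2a2 in PWK/PhJ, and 0.1663 CPM for Sult5a1 in CAST/EiJ.

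The 3 hydroxysteroid sulfotransferases on chromosome 7 had their highest means in 3 different strains. Sult2a1 was highest in CAST/EiJ and lowest in NOD/ShiLtJ, Sult2a2 was highest in C57BL/6J and nearly absent in PWK/PhJ, and Sult2a8, highest in PWK/PhJ, stayed within 2-fold. Sult2a1 lies at chr7:13796246-13837409, Sult2a2 at chr7:13733505-13779636 and Sult2a8 at chr7:14410686-14446769 (GRCm38, protein-coding genes of GENCODE M21). They belong to a cluster of 8 Sult2a genes that spans 870.3 kb from Sult2a5 to Sult2a7.

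The sequences are shown because parts of Sult2a1 and Sult2a2 are alike, which bears on how reads were divided between them. Their annotated coding sequences, of 855 and 582 bases, were 98.6% identical over the 582 bases aligned without a gap. Each is the first 90 coding bases in the annotated transcript, within the first coding exon, 5′ to 3′, and capitals mark bases that differ from Sult2a1. The stretches lie at chr7:13837267-13837356 (minus strand) for Sult2a1, chr7:13733559-13733648 (plus strand) for Sult2a2, chr7:13624045-13624134 (plus strand) for Sult2a5 and chr7:14427830-14427919 (minus strand) for Sult2a8.
Sult2a1: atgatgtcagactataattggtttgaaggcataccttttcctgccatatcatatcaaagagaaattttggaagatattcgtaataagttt
Sult2a2: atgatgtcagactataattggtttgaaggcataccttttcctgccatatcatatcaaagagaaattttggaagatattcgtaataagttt
Sult2a5: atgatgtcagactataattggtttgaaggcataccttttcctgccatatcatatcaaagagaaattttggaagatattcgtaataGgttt
Sult2a8: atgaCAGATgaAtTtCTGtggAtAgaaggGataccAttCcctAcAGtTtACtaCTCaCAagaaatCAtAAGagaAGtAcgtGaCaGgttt
Sult2a2 did not differ from Sult2a1 in these 90 bases, Sult2a5 differed at 1 and Sult2a8 at 37. Over whole transcripts, 62.1% of the 50-base windows of Sult2a2 and 33.2% of those of Sult2a1 also occur in another Sult transcript of the annotation, against 6.2% for Sult3a1 and 0% for the other 7 genes. The 50-base windows found in both genes were 29.5% of those of Sult2a1 and 41.3% of those of Sult2a2. The deposited counts of Sult2a1 and Sult2a2 were not exactly whole numbers, with no tolerance applied, in any of the 27 libraries, and the split of reads between these 2 genes is uncertain. Sult2a8 had whole counts in every library.

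Sult2a1, which sulfates dehydroepiandrosterone and bile acids, stood at 473, 637 and 844 CPM in the 3 CAST/EiJ libraries and at 206, 535 and 503 CPM in PWK/PhJ. WSB/EiJ followed with 151, 332 and 421 CPM, C57BL/6J with 222, 243 and 58.2 CPM and 129S1/SvImJ with 148, 211 and 96.7 CPM. Levels were 136, 82.3 and 54.8 CPM in A/J, 66.8, 112 and 80.5 CPM in NZO/HlLtJ, 103, 49.9 and 23.8 CPM in DBA/2J, and 16.2, 20.2 and 6.55 CPM in NOD/ShiLtJ. The NOD/ShiLtJ libraries lay below all others, while every other pair of neighbours in the order of means overlapped. The CAST/EiJ mean was 45.6 times the NOD/ShiLtJ mean. Each strain was tested against the mean of the other 8 on the log scale, in the same edgeR fit. Sult2a1 was higher in CAST/EiJ (log2 fold change 2.56 ± 0.32 SE, adjusted p = 6.42e-07) and PWK/PhJ (1.83 ± 0.34, adjusted p = 0.00015) and lower in NOD/ShiLtJ (-3.63 ± 0.54, adjusted p = 2.39e-05). It also passed as higher in WSB/EiJ (1.31 ± 0.35, adjusted p = 0.00775), but not without WSB/EiJ replicate 3 (adjusted p = 0.054) or replicate 4 (adjusted p = 0.116). It passed as lower in DBA/2J (-1.34 ± 0.45, adjusted p = 0.0478), a call lost on leaving out 19 of the 27 libraries in turn, with adjusted p up to 0.212; without DBA/2J replicate 2 the value was -2.02. With median-of-ratios size factors that adjusted p was 0.0505.

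Sult2a2, a close relative of Sult2a1, stood at 176, 159 and 61.7 CPM in C57BL/6J, and at 0.24, 0.309 and 0.166 CPM in PWK/PhJ, which were 6, 9 and 5 counts. CAST/EiJ held 3.61, 4.74 and 8.09 CPM. The other 6 strains ran from 18 CPM in NOD/ShiLtJ replicate 3 to 94.6 CPM in 129S1/SvImJ replicate 2. PWK/PhJ lay below all other libraries, and CAST/EiJ lay between PWK/PhJ and the rest without overlap. The C57BL/6J mean was 557 times the PWK/PhJ level from pooled counts (95% exact Poisson interval of the 20 pooled counts, 361 to 912, counting error only). Sult2a2 was lower in PWK/PhJ (log2 fold change -7.58 ± 0.57 SE, adjusted p = 1.01e-10) and CAST/EiJ (-2.54 ± 0.38, adjusted p = 7.36e-06). It was higher in C57BL/6J (2.65 ± 0.24, adjusted p = 1.38e-08). Sult2a2 also passed as higher in A/J, DBA/2J, NZO/HlLtJ, WSB/EiJ and 129S1/SvImJ. The log-scale mean of the others is pulled down by strains near 0. A/J (43.95 CPM) and DBA/2J (50.43 CPM) lay below the arithmetic mean of the others, 54.99 and 54.18 CPM. NZO/HlLtJ (64.16 CPM), WSB/EiJ (76.95 CPM) and 129S1/SvImJ (73.19 CPM) lay above it, at 52.46, 50.86 and 51.33 CPM. The A/J call was lost without A/J replicate 1 (adjusted p = 0.248) or 2 (adjusted p = 0.0869), and the DBA/2J call without DBA/2J replicate 2 (adjusted p = 0.144).

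Both strains with the least Sult2a2 had the most Sult2a1. Because reads of these genes can be shared, Sult2a1 to Sult2a7 were also summed into 1 row, an alternative chosen after seeing the data. The sum was 733.2 CPM ± 225.8 (SD, n = 3) in CAST/EiJ, 434.2 ± 192.8 in PWK/PhJ, 341 ± 178.7 in C57BL/6J and 77.33 ± 38.99 in NOD/ShiLtJ. It differed among strains by the edgeR F test (adjusted p = 0.00013), was higher in CAST/EiJ (adjusted p = 0.00013) and lower in NOD/ShiLtJ (adjusted p = 0.00105). The sum did not pass in the other 7 strains. Its adjusted p was 0.0671 in PWK/PhJ, 0.0885 in WSB/EiJ, 0.0966 in A/J, 0.137 in DBA/2J, 0.465 in C57BL/6J, 0.747 in NZO/HlLtJ and 0.967 in 129S1/SvImJ. In C57BL/6J, where Sult2a2 alone was called at 2.65, the log2 fold change of the sum was 0.38 ± 0.33. The submitters' notes name GRCm38 and mm10 without their roles. Whether reads were aligned to these or to strain genomes is not given in the sources used here. Less RNA and fewer aligned reads in a strain that differs in sequence therefore cannot be told apart.

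Sult2a8, known as a bile acid sulfotransferase of mouse liver, was the steadiest of the 10 genes. It ran from 149 CPM in WSB/EiJ replicate 4 to 436 CPM in PWK/PhJ replicate 2, with a median-ranked strain, CAST/EiJ, at 260, 236 and 244 CPM. NZO/HlLtJ held 326, 369 and 363 CPM, PWK/PhJ 283, 436 and 377 CPM and WSB/EiJ 214, 185 and 149 CPM. Libraries of most neighbouring strains overlapped; the exception was NZO/HlLtJ, whose lowest library (326 CPM) was just above the highest of 129S1/SvImJ (325 CPM). Sult2a8 was higher in NZO/HlLtJ (log2 fold change 0.49 ± 0.14 SE, adjusted p = 0.0136) and PWK/PhJ (0.55 ± 0.14, adjusted p = 0.00406) and lower in WSB/EiJ (-0.58 ± 0.16, adjusted p = 0.00876). Each of the 3 calls needed particular libraries: adjusted p rose to 0.0861 or 0.0595 without NZO/HlLtJ replicate 2 or 3, to 0.0889 without PWK/PhJ replicate 2, and to 0.0967 without WSB/EiJ replicate 4.

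The other genes of the cluster also differed in which strain held them. Sult2a7 averaged 111.1 CPM in NZO/HlLtJ and 0.07673 CPM in CAST/EiJ, a ratio of 1370 from 7 pooled counts (95% exact Poisson interval 665 to 3410). Sult2a6 averaged 19.18 CPM in WSB/EiJ and had 0 counts in the 3 PWK/PhJ libraries. With a floor of 3 counts over the group in place of 0 the ratio was 539. The 95% exact Poisson interval of this ratio started at 438 and had no upper end. Sult2a4 averaged 9.388 CPM in CAST/EiJ, with 1 count in the C57BL/6J libraries together (ratio 726, 95% interval 130 to 28700). That count was in C57BL/6J replicate 1, and without that library no ratio can be given. Sult2a3 averaged 34.54 CPM in CAST/EiJ, with 1 count in the NOD/ShiLtJ libraries together (ratio 3050, 95% interval 548 to 121000). These intervals cover counting error only: the CAST/EiJ libraries held 11.1, 33 and 59.5 CPM of Sult2a3, and the ratio of means was 1910 in place of 2990 without CAST/EiJ replicate 5. The single NOD/ShiLtJ count was in replicate 2, and without that library no count is left and no ratio can be given. The split of reads is uncertain for Sult2a3, Sult2a4, Sult2a5 and Sult2a6 too, while Sult2a7 had whole counts in every library. Of their 50-base windows, 25.5% in Sult2a4, 34.5% in Sult2a5, 8.4% in Sult2a3 and 7.3% in Sult2a6 occur in another Sult transcript compared. Their counts were not exactly whole in 26, 27, 21 and 21 libraries, in that order. Sult2a5 varied less, from 6.206 CPM in C57BL/6J to 28.67 CPM in CAST/EiJ. All 5 passed the F test over strains, which 74.2% of all genes tested passed.

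**Figure D2:**
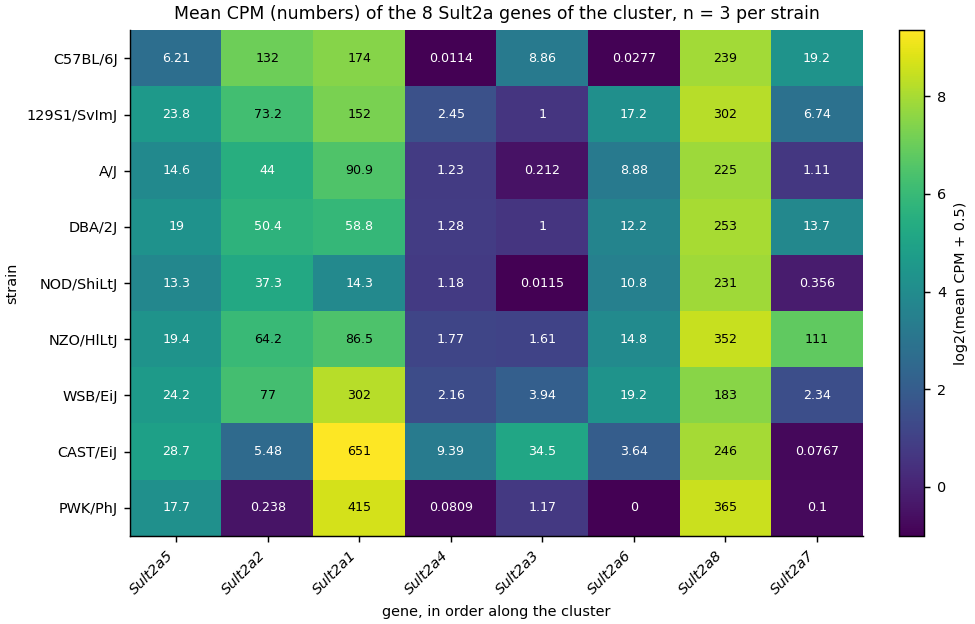
Mean CPM (numbers, n = 3 libraries) of the 8 Sult2a genes in their order along chromosome 7 (columns) in each strain (rows); the colour gives log2(mean CPM + 0.5). Sult2a8 is high in all rows (182.6 to 365.1 CPM), while Sult2a1 is brightest in CAST/EiJ (651.4 CPM) and Sult2a2 is dark in PWK/PhJ (0.2383 CPM).

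Sult3a1, the amine sulfotransferase, reached the highest level of the 10 genes and had the smallest adjusted p-value. Its CPM was 1990, 1720 and 1770 in CAST/EiJ, 877, 1010 and 809 in NOD/ShiLtJ, and 522, 1060 and 1000 in PWK/PhJ. It was 716, 831 and 673 in 129S1/SvImJ, 794, 536 and 405 in DBA/2J, and 596, 615 and 361 in WSB/EiJ. The lowest strains were NZO/HlLtJ with 186, 178 and 195, C57BL/6J with 55.7, 85.1 and 71.9, and A/J with 18.7, 21.1 and 30.3. CAST/EiJ lay above all other libraries, a middle group of 5 strains overlapped from neighbour to neighbour, and NZO/HlLtJ, C57BL/6J and A/J each lay below the strain ranked before it without overlap. The CAST/EiJ mean was 78.1 times the A/J mean. Sult3a1 was lower in A/J (log2 fold change -4.43 ± 0.28 SE, adjusted p = 1.32e-11), C57BL/6J (-2.63 ± 0.24, adjusted p = 1.43e-08) and NZO/HlLtJ (-1.06 ± 0.21, adjusted p = 0.000636). It was higher in CAST/EiJ (2.64 ± 0.16, adjusted p = 7.92e-13), NOD/ShiLtJ (1.49 ± 0.17, adjusted p = 4.41e-07), PWK/PhJ (1.42 ± 0.17, adjusted p = 4.01e-07) and 129S1/SvImJ (1.18 ± 0.17, adjusted p = 2.48e-05). DBA/2J and WSB/EiJ passed as higher on the log scale (adjusted p = 0.00376 and 0.0149), although their means, 578.4 and 524 CPM, lay below the arithmetic means of the other strains, 641.3 and 648.1 CPM. These calls were lost without DBA/2J replicate 2 (adjusted p = 0.194) and without WSB/EiJ replicate 2 (adjusted p = 0.116) or 3 (adjusted p = 0.161).

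Sult3a1 lies at chr10:33857721-33879532 on the plus strand, within 113.1 kb of its neighbour Sult3a2 on the minus strand, whose coding sequence is 91.0% identical. Sult3a2 was the gene most like Sult3a1 in its levels, with Pearson r = 0.98 over the 27 libraries and 0.98 over the 9 strain means, given as a description. It averaged 790.9 CPM in CAST/EiJ and 1.485 CPM in A/J, a ratio of 533. In C57BL/6J it stood at 3.79, 4.27 and 4 CPM, and in NZO/HlLtJ at 40.9, 51 and 42.9 CPM. The libraries of both genes shared the order A/J, C57BL/6J and NZO/HlLtJ at the low end and CAST/EiJ at the top. Reads could be shared between them in 6.2% of the windows of Sult3a1, and its counts were not whole in 24 libraries. The sum of both genes, chosen after seeing the data, was 2616 CPM ± 242 (SD, n = 3) in CAST/EiJ and 24.86 ± 6.522 in A/J.

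**Figure D3:**
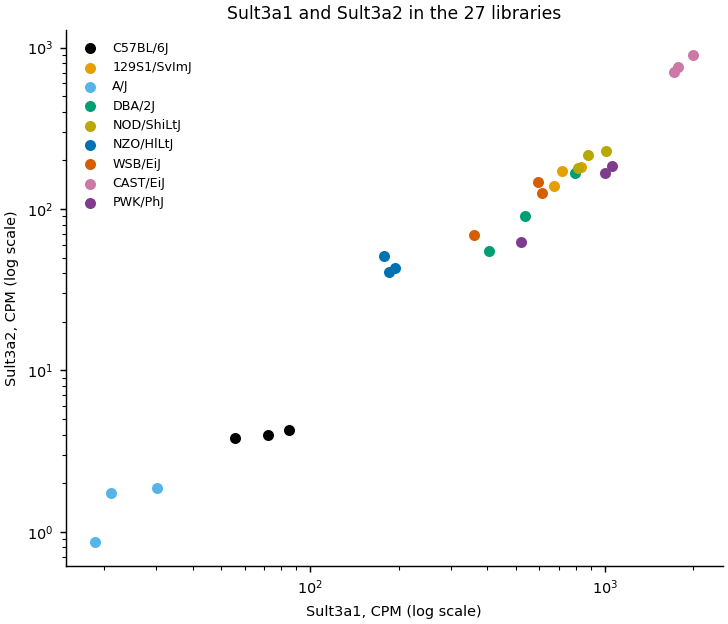
Sult3a2 CPM (y axis, log scale) against Sult3a1 CPM (x axis, log scale) in the 27 libraries, coloured by strain. The points run from A/J at the lower left (Sult3a1 at 18.7 to 30.3 CPM) to CAST/EiJ at the upper right (Sult3a1 at 1720 to 1990 CPM).

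The promoters of this pair are shown because the 2 genes moved together. Each covers 300 bases around the start annotated by RefSeq (GRCm38.p6), most of them upstream, 5′ to 3′ on the strand of the gene, and capitals mark matches to the motifs searched. Sult3a1 is at chr10:33857472-33857771 and Sult3a2 at chr10:33782066-33782365. The 2 annotations disagree on Sult3a2: GENCODE M21 starts it further upstream, at position 33786704, so that most of its stretch lies in the first intron there, and the end of the stretch holds its first coding bases (from position 33782115 on the minus strand). The stretch of Sult3a2 may therefore not be its promoter, and the 2 stretches were not compared base by base.
Sult3a1: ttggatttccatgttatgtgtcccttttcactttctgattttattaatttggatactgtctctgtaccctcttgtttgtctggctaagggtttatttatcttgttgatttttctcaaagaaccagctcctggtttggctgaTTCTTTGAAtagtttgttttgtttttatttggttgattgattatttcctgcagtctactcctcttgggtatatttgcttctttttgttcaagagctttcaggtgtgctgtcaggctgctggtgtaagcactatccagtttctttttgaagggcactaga
Sult3a2: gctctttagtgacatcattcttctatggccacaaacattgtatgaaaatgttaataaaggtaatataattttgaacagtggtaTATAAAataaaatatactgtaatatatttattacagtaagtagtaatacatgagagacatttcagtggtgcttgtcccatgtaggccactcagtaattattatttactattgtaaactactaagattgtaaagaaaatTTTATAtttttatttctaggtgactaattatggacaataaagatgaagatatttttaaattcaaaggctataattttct
The motifs searched on both strands were TTCNNNGAA (the core of STAT sites), AGGTCA (a nuclear receptor half-site), TATAAA (the TATA box) and CAAAGTCCA (a core of HNF4A sites), and no 2 matches in these stretches overlapped. Sult3a1 held 1 TTCNNNGAA and Sult3a2 held 2 TATAAA. These letters occur in 8.298% and 13.616% of 32851 promoters of the same length, AGGTCA in 16.255% and CAAAGTCCA in 0.475%. A match is a description of the sequence and not a bound site.

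The SULT1 genes on chromosome 5, Sult1b1, Sult1d1 and Sult1e1, sit within 78.3 kb. Their highest means were in NZO/HlLtJ, NOD/ShiLtJ and WSB/EiJ, in that order. All 3 were called lower in CAST/EiJ and higher in 129S1/SvImJ, where 37.9% and 18.4% of all genes tested were called in either direction. Of these calls, those of Sult1d1 were lost on leaving out single libraries: 17 of the 27 in turn for CAST/EiJ, and 129S1/SvImJ replicate 2 for 129S1/SvImJ (adjusted p = 0.0534). Pearson correlations of log2 CPM over the 27 libraries, given as a description, were 0.34 for Sult1b1 with Sult1d1, 0.47 for Sult1b1 with Sult1e1 and 0.49 for Sult1d1 with Sult1e1. Sult1e1, the estrogen sulfotransferase, had the widest range of the 3. It stood at 67.8, 136 and 116 CPM in WSB/EiJ, at 5.22, 6.96 and 43.2 CPM in NZO/HlLtJ, at 4.53, 5.49 and 5.64 CPM in 129S1/SvImJ and at 2.28, 4.07 and 7.08 CPM in DBA/2J. C57BL/6J held 0.991, 1.6 and 0.126 CPM and NOD/ShiLtJ 0.552, 1.73 and 0.662 CPM. A/J held 1, 3 and 12 counts, CAST/EiJ 4, 2 and 1 counts, and PWK/PhJ 2, 0 and 2 counts. WSB/EiJ lay above all other libraries, and the 5 lowest strains overlapped from neighbour to neighbour. NZO/HlLtJ replicate 3, at 43.2 CPM, stood apart from the other NZO/HlLtJ libraries. The WSB/EiJ mean was 2250 times the PWK/PhJ level from 4 pooled counts (95% exact Poisson interval 877 to 8250). Sult1e1 was higher in WSB/EiJ (log2 fold change 6.90 ± 0.35 SE, adjusted p = 1.31e-13), NZO/HlLtJ (4.04 ± 0.40, adjusted p = 4.15e-08) and 129S1/SvImJ (2.00 ± 0.48, adjusted p = 0.00451). Without NZO/HlLtJ replicate 3 the value in NZO/HlLtJ was 2.45 (adjusted p = 3.95e-05). It was lower in CAST/EiJ (-4.68 ± 1.12, adjusted p = 0.00197) and PWK/PhJ (-5.48 ± 1.13, adjusted p = 0.000496). The means in 129S1/SvImJ and DBA/2J, 5.221 and 4.475 CPM, lay below the arithmetic means of the others, 16.48 and 16.57 CPM, which WSB/EiJ dominates. A call in A/J (-3.03 ± 0.95, adjusted p = 0.0203) was lost without A/J replicate 1 (adjusted p = 0.0683) or 2 (0.0681) or PWK/PhJ replicate 1 (0.0607) or 3 (0.0642), and the value was -4.31 without A/J replicate 3. A call of higher in DBA/2J (1.77 ± 0.50, adjusted p = 0.0171) was lost without DBA/2J replicate 4 (adjusted p = 0.198).

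Sult1b1, which sulfates thyroid hormones, was low in a single strain, CAST/EiJ, at 4.94, 4.08 and 3.3 CPM. NZO/HlLtJ was highest with 27.3, 26.3 and 28.3 CPM, followed by 129S1/SvImJ with 23.7, 22.3 and 22.8 CPM. The other 6 strains ran from 8.31 CPM in C57BL/6J replicate 1 to 19.5 CPM in A/J replicate 1. The libraries of CAST/EiJ, 129S1/SvImJ and NZO/HlLtJ overlapped with those of no other strain. Sult1b1 was lower in CAST/EiJ (log2 fold change -1.99 ± 0.18 SE, adjusted p = 1.75e-09) and higher in NZO/HlLtJ (1.07 ± 0.13, adjusted p = 1.03e-06) and 129S1/SvImJ (0.79 ± 0.13, adjusted p = 0.000146). None of these 3 calls was lost under any alternative tried.

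Sult1d1, which sulfates catecholamines among other substrates, stood at 117, 150 and 145 CPM in NOD/ShiLtJ and 117, 157 and 115 CPM in 129S1/SvImJ. It was lowest in PWK/PhJ with 38.3, 59.2 and 57.4 CPM, and the other strains ran from 40.3 CPM in A/J replicate 3 to 118 CPM in WSB/EiJ replicate 4. All neighbours in the order of means overlapped. Sult1d1 was higher in NOD/ShiLtJ (log2 fold change 0.82 ± 0.15 SE, adjusted p = 0.000408) and lower in PWK/PhJ (-0.77 ± 0.18, adjusted p = 0.00138). It passed as higher in 129S1/SvImJ (0.72 ± 0.15, adjusted p = 0.0017), though not without 129S1/SvImJ replicate 2 (adjusted p = 0.0534), and as lower in A/J (-0.55 ± 0.17, adjusted p = 0.0213), though not without A/J replicate 3 (adjusted p = 0.256). The call in CAST/EiJ (-0.44 ± 0.17, adjusted p = 0.0457) was lost on leaving out 17 of the 27 libraries in turn, with adjusted p up to 0.257.

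Sult1a1, the phenol sulfotransferase at chr7:126672865-126676432 on chromosome 7, was abundant everywhere. Its CPM was 235, 408 and 365 in PWK/PhJ and 120, 165 and 98.2 in A/J, and the other strains ran from 130 in CAST/EiJ replicate 1 to 316 in WSB/EiJ replicate 2. All neighbours in the order of means overlapped, and the highest mean was 2.63 times the lowest. Sult1a1 was higher in PWK/PhJ (log2 fold change 0.71 ± 0.17 SE, adjusted p = 0.00171) and lower in A/J (-0.86 ± 0.19, adjusted p = 0.00163). The calls in NZO/HlLtJ (lower, adjusted p = 0.0211) and WSB/EiJ (higher, adjusted p = 0.0369) were lost without NZO/HlLtJ replicate 1 (adjusted p = 0.145) or 3 (0.0759) and without any of the WSB/EiJ libraries (adjusted p = 0.056 to 0.161). The WSB/EiJ call was also lost with upper-quartile factors (adjusted p = 0.0537).

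Sult1c2, a SULT1 enzyme of phenolic substrates encoded on chromosome 17, was the least abundant of the 10 genes on average. WSB/EiJ held 0.506, 0.403 and 0.46 CPM, which were 12, 10 and 10 counts, and PWK/PhJ held 1.28, 2.16 and 1.39 CPM. CAST/EiJ held 7.65, 9.12 and 6.44 CPM and DBA/2J 9.04, 6.93 and 6.92 CPM, and the other strains ran from 2.82 CPM in C57BL/6J replicate 4 to 9.97 CPM in A/J replicate 2. WSB/EiJ lay below all other libraries, with PWK/PhJ next and again without overlap. The CAST/EiJ mean was 17 times the WSB/EiJ level (95% exact Poisson interval of 32 pooled counts, 12 to 24.8). Sult1c2 was lower in WSB/EiJ (log2 fold change -3.38 ± 0.30 SE, adjusted p = 4.17e-09) and PWK/PhJ (-1.34 ± 0.24, adjusted p = 8.16e-05) and higher in CAST/EiJ (1.20 ± 0.18, adjusted p = 9.75e-06) and DBA/2J (1.17 ± 0.18, adjusted p = 4.73e-05). The calls in A/J, 129S1/SvImJ and NOD/ShiLtJ (all higher, adjusted p = 0.000496, 0.00609 and 0.0267) were lost without A/J replicate 2 (adjusted p = 0.0514), 129S1/SvImJ replicate 3 (0.0764) or any of the NOD/ShiLtJ libraries (0.0715 to 0.15).

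Sult5a1, a member of the family with few known substrates, lies alone at chr8:123140192-123158315. It stood at 116, 120 and 116 CPM in PWK/PhJ and at 0.266, 0.181 and 0.0516 CPM in CAST/EiJ, which were 9, 6 and 1 counts. DBA/2J held 38.2, 26.5 and 13.4 CPM, NOD/ShiLtJ 23.6, 28.8 and 20.7 CPM, C57BL/6J 16.1, 17.9 and 25.4 CPM and WSB/EiJ 21.4, 20.7 and 6.08 CPM. 129S1/SvImJ held 14.2, 6.81 and 9.58 CPM, NZO/HlLtJ 11.3, 9.39 and 4.68 CPM, and A/J 1.87, 2.67 and 2.45 CPM. PWK/PhJ lay above and CAST/EiJ below all other libraries, A/J lay apart from both CAST/EiJ and NZO/HlLtJ, and the 6 strains between overlapped from neighbour to neighbour. The PWK/PhJ mean was 632 times the CAST/EiJ level (95% exact Poisson interval of 16 pooled counts, 389 to 1110). Sult5a1 was higher in PWK/PhJ (log2 fold change 4.01 ± 0.22 SE, adjusted p = 3.2e-13) and lower in CAST/EiJ (-6.43 ± 0.55, adjusted p = 8.77e-10) and A/J (-2.34 ± 0.38, adjusted p = 6.55e-05). DBA/2J (1.57 ± 0.26, adjusted p = 0.000106) and NOD/ShiLtJ (1.46 ± 0.26, adjusted p = 0.000244) also passed as higher. The NOD/ShiLtJ mean, 24.36 CPM, was below the arithmetic mean of the others, 25.03 CPM. C57BL/6J and WSB/EiJ passed as higher (adjusted p = 0.00446 and 0.0396), with means of 19.83 and 16.05 CPM below the arithmetic means of the others, 25.6 and 26.07 CPM. The C57BL/6J call was lost without C57BL/6J replicate 4 (adjusted p = 0.0854), and the WSB/EiJ call without WSB/EiJ replicate 2 (adjusted p = 0.297) or 3 (0.286) or CAST/EiJ replicate 4 (0.0514) or 5 (0.054), and with upper-quartile factors (0.0537).

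By strain, PWK/PhJ had the most sulfotransferases called, 9 of 10, with 5 higher and 4 lower, against 34.2% of all genes tested. CAST/EiJ had 8 (3 higher, 5 lower; 37.9% of all genes) and WSB/EiJ 8 (6 higher, 2 lower; 24.7%). A/J had 7 (2 higher, 5 lower; 27.5%), NZO/HlLtJ 6 (4 higher, 2 lower; 27.6%), DBA/2J 6 (5 higher, 1 lower; 13.3%) and 129S1/SvImJ 6, all higher (18.4%). NOD/ShiLtJ had 5 (4 higher, 1 lower; 14.9%) and C57BL/6J 3 (2 higher, 1 lower; 18.1%). The median log2 fold change of the 10 genes ran from -0.59 in A/J to 0.74 in 129S1/SvImJ, and that of all genes tested from -0.01 in CAST/EiJ to 0.02 in A/J. The 9 comparisons share libraries, since each strain is part of the mean for the other 8. Without A/J replicate 2 the A/J count was 4, and the WSB/EiJ count was 4 without WSB/EiJ replicate 3 and 5 without replicate 2 or 4.

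**Figure D4:**
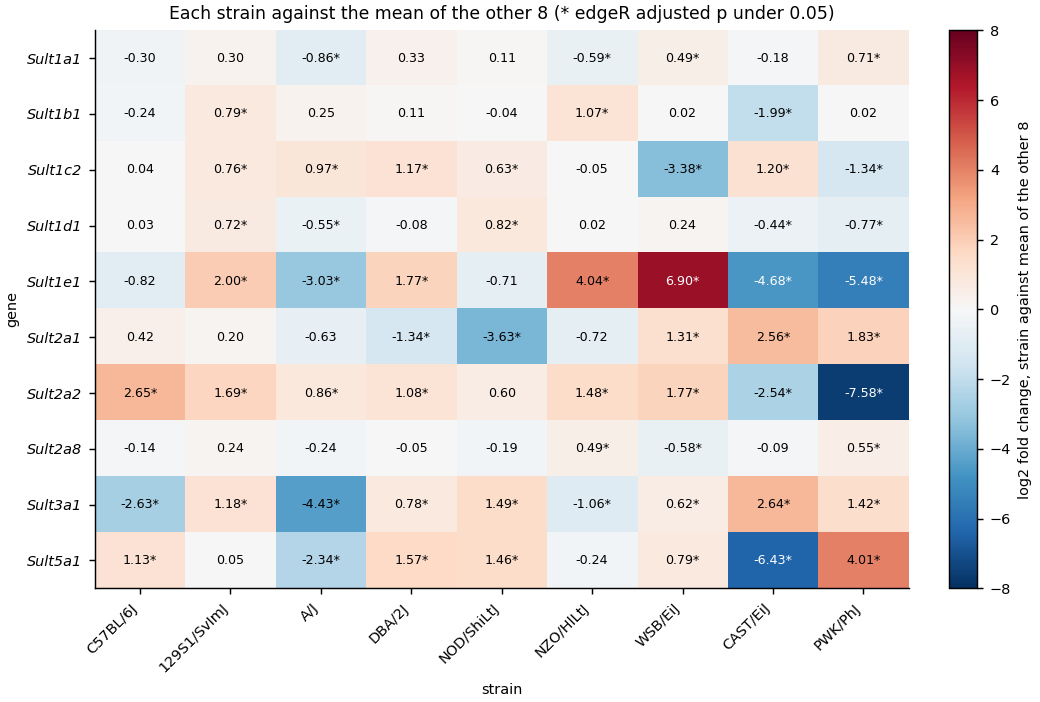
Log2 fold change (colour and numbers) of each of the 10 genes (rows) in each strain (columns) against the log-scale mean of the other 8 strains, with an asterisk where the edgeR adjusted p is under 0.05. The extremes are Sult2a2 in PWK/PhJ at -7.58 and Sult1e1 in WSB/EiJ at 6.90, and the row of Sult2a8 stays between -0.58 and 0.55.

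Levels of different genes were compared per kb of the longest annotated transcript. The summed level of the 10 genes was 2517 CPM per kb ± 174 (SD, n = 3) in CAST/EiJ, 1627 ± 539.3 in PWK/PhJ and 402.1 ± 103.2 in A/J. Sult3a1 made up 65.2% ± 0.393 (SD, n = 3) of this sum in NOD/ShiLtJ, 63.1% ± 7.13 in CAST/EiJ, 49.7% ± 1.45 in 129S1/SvImJ and 49.6% ± 7.46 in DBA/2J. It was also the largest mean share in PWK/PhJ (45.7% ± 0.855) and WSB/EiJ (35.4% ± 9.89). In the WSB/EiJ libraries its share ran from 24.8% to 44.4%, and that of Sult2a1 from 12.8% to 32.8%. In C57BL/6J the largest shares were Sult2a2 at 24.3% ± 5.88 and Sult2a1 at 22.6% ± 9.03, which differed by less than their spread. The annotated transcript of Sult2a2 has 741 bases against 1020 for Sult2a1, and a short model raises a level per kb. With Sult2a2 at the length of Sult2a1, an alternative chosen after seeing the data, its share was 19.0% ± 4.87, below Sult2a1 (24.3% ± 9.96) and Sult1a1 (21.3% ± 6.24) by less than their spread. In A/J Sult2a8 was largest at 26.2% ± 3.17, ahead of Sult1a1 (23.7% ± 5.58) by less than their spread, and Sult2a1 held 21.5% ± 4.62. In NZO/HlLtJ Sult2a8 (24.5% ± 0.919) and Sult3a1 (24.2% ± 2.92) were level. With the longer exon union as length, Sult2a8 fell to 19.4% in A/J and 17.9% in NZO/HlLtJ, behind Sult2a1 (24.3%) and Sult1a1 (24.3%) in A/J and Sult3a1 (26.9%) in NZO/HlLtJ.

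**Figure D5:**
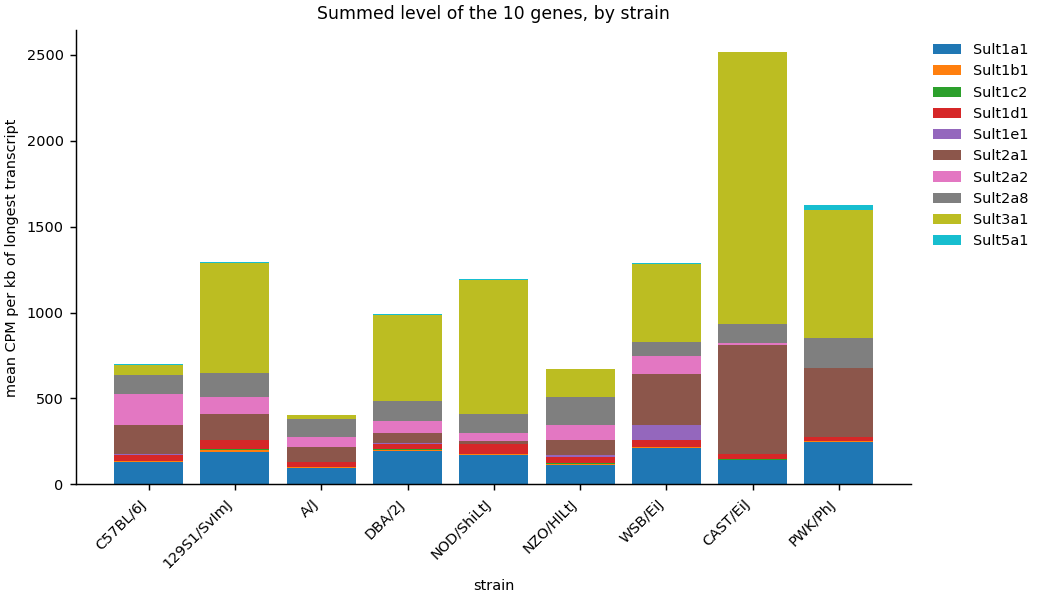
Stacked bars of the mean CPM per kb of the longest transcript of the 10 genes in each strain (n = 3 libraries). CAST/EiJ has the tallest bar (2517 CPM per kb) and A/J the shortest (402.1), and Sult3a1 fills the largest part in 6 strains.

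Within strains, some libraries differed from their group across several of the genes. C57BL/6J replicate 4 held 58.2 CPM of Sult2a1 against 222 and 243 CPM in the other C57BL/6J libraries, and 61.7 CPM of Sult2a2 against 176 and 159 CPM. NOD/ShiLtJ replicate 3 lay below its strain mean for 8 of the 10 genes, as did NZO/HlLtJ replicate 1 and PWK/PhJ replicate 1. For PWK/PhJ replicate 1 the sum over genes known as higher in male liver was 6010 CPM against 2130 and 2610 CPM in the other PWK/PhJ libraries. The same sum was 4450 CPM in CAST/EiJ replicate 1 against 2550 and 1780 CPM, and 3790 CPM in A/J replicate 3 against 2250 and 2080 CPM. The sum over genes known as higher in female liver was 5610 CPM in WSB/EiJ replicate 4 against 18700 and 11600 CPM, and 5200 CPM in DBA/2J replicate 4 against 11500 and 14300 CPM. Without the library named, the number of the 10 genes called was 9 in place of 9 in PWK/PhJ, 7 in place of 8 in CAST/EiJ, 6 in place of 7 in A/J, 5 in place of 8 in WSB/EiJ and 4 in place of 6 in DBA/2J. Single genes held a large part of some of these sums. Mup7 stood at 3360 CPM in PWK/PhJ replicate 1 against 640 and 936 CPM in the other PWK/PhJ libraries. A1bg stood at 1600 CPM in DBA/2J replicate 4 against 4910 and 6650 CPM in the other DBA/2J libraries. The part of these sums in the sulfotransferase values was not tested. Among pairs of the 10 genes, Pearson correlations over the 27 libraries, given as a description, ran from -0.47 (Sult1c2 with Sult1e1) to 0.61 (Sult1a1 with Sult3a1).

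For the other members, the genes most alike over the 27 libraries were found among 10537 named genes of at least 1 CPM; these libraries share their strain structure. For Sult2a2 they were Gas1 (r = 0.93), Inmt (0.93) and Cyp2c38 (0.92), and for Sult2a1 Cd36 (0.81), Sult2a3 (0.80) and Gsta2 (0.79). For Sult1b1 they were Ropn1l (0.92), Rpl7a (0.90) and Frg2f1 (0.87), for Sult1c2 Cd9 (0.88), Cyp3a59 (0.86) and Nxpe2 (0.85), and for Sult1d1 Gstm1 (0.86), Pcp4l1 (0.85) and Tmem183a (0.81). Among the closest to Sult1e1 were B4galnt3 (0.79) and Aqp4 (0.79). For Sult2a8 the genes most alike were Rap2c (0.87), Stk4 (0.87) and Ubox5 (0.86), and for Sult5a1 Rpl29 (0.87), Celsr1 (0.87) and Prox1os (0.86). Sult1a1 had no close match, with Gls2 at 0.74, Pi4k2b at 0.73 and Qdpr at 0.72. After Sult3a2, Sult3a1 was most like Hist4h4 (0.94) and Serhl (0.84).

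The genes that supply the sulfonate donor had a smaller median range than the 10 sulfotransferases. All 11 genes of PAPS synthesis, transport and breakdown and of sulfate uptake passed the F test over strains, which 74.2% of all genes tested passed, with a median log2 range of 1.14 against 4.33. Papss1 and Papss2, the synthases that make PAPS, were both highest in NZO/HlLtJ (15.51 and 263.3 CPM) and lowest in A/J (6.707 and 134.9 CPM). Against the other 8 strains Papss2 was lower in A/J (-0.69 ± 0.18, edgeR adjusted p = 0.00549) and DBA/2J (-0.55 ± 0.17, adjusted p = 0.0347), and Papss1 was higher in NZO/HlLtJ (0.90 ± 0.14, adjusted p = 2.55e-05) and lower in A/J (-0.46 ± 0.16, adjusted p = 0.0354). Among the genes of the list averaging at least 1 CPM, the largest ranges were those of Impad1, a phosphatase of the PAP by-product (67.05 CPM in A/J, 7.894 CPM in CAST/EiJ), and the sulfate transporters Slc26a2 (15.05 CPM in NZO/HlLtJ, 3.974 CPM in 129S1/SvImJ) and Slc26a1 (428.2 CPM in DBA/2J, 180 CPM in 129S1/SvImJ).

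Other lists around sulfation passed the F test over strains at 10 of 10 genes for sulfur oxidation (median log2 range 1.28), 12 of 12 sulfatases (1.24) and 10 of 14 Golgi sulfotransferases (0.978), against 74.2% of all genes tested. The genes named here and in the following lists average at least 1 CPM. In the first list Csad, which makes hypotaurine, ran from 5.315 CPM in WSB/EiJ to 210.6 CPM in NOD/ShiLtJ, Cth from 203.6 CPM in A/J to 1009 CPM in CAST/EiJ, and Ethe1 from 22.65 CPM in A/J to 98.28 CPM in WSB/EiJ. The Ethe1 ratio was 4.34, and 2.83 without WSB/EiJ replicate 4. Of the sulfatases, Arsa, Sulf2 and Arsg had ratios of highest to lowest strain mean of 4.23, 3.68 and 2.91. Arsa and Sulf2 were highest in PWK/PhJ, and their ratios were 3.12 and 3.05 without PWK/PhJ replicate 1. Of the Golgi enzymes, Chst2, Chst15 and Tpst1 had ratios of 13.8, 4.52 and 2.41. Chst15 was highest in PWK/PhJ, and its ratio was 3.14 without PWK/PhJ replicate 1. Chst2 was highest in PWK/PhJ at 7.27, 2.13 and 1.69 CPM, and its ratio was 7.14 without PWK/PhJ replicate 1, the library with the highest endothelial and Kupffer cell sums. Of 18 receptors and factors named as regulators of Sult genes, 14 passed, a share near that of all genes (median log2 range 0.865, against 0.941 for all genes). Among the widest ranges there were those of Nr1h3, an oxysterol receptor (42.81 CPM in A/J to 113.3 CPM in CAST/EiJ) and Nr1i3, the constitutive androstane receptor (111.5 CPM in PWK/PhJ to 261.3 CPM in C57BL/6J).

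Among genes known to differ by sex in mouse liver, all 14 genes of the female-higher list passed the F test, against 74.2% of all genes tested (median log2 range 3.39), with Cyp2b9 from 2.493 CPM in 129S1/SvImJ to 1543 CPM in WSB/EiJ, Cyp2b13 with a ratio of 209 and A1bg with a ratio of 138. Of the male-higher list 13 of 14 passed (4.62), with Mup20, Mup7 and Hsd3b5 at ratios of 1180, 63 and 71.9. Single libraries moved these ratios: without PWK/PhJ replicate 1 they were 665 for Mup20 and 30.1 for Mup7, without CAST/EiJ replicate 4 or 5 that of Mup20 was 1990 or 786, and without WSB/EiJ replicate 2 that of Hsd3b5 was 252. The pericentral list passed at 9 of 11 (1.69), near the share of all genes, and the periportal list at 11 of 11 (1.99). Oat, Cyp2c37 and Glul led the former with ratios of 7.93, 6.22 and 4.59, and Igfbp2, Hsd17b6 and Aldh1b1 the latter with 8.06, 7.44 and 6.65. Mup20, Mup7, Cyp2b9 and Cyp2b13 have close copies, and their counts, not whole in 14, 27, 26 and 27 libraries, are uncertain too. Counts were also not whole in 27 libraries for Cyp2c37, Glul, Hsd17b6, Slc26a1 and Nr1i3. The same held in 20 libraries for Sulf2, 18 for Hsd3b5, 14 for Slc26a2 and 11 for Arsa. Shared windows were not searched for these genes. Of the other cytosolic sulfotransferase genes, all 6 that were tested passed, while Sult1c1, Sult2b1 and Sult6b2 had 0 counts in all 27 libraries.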

How the data were processed

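The authors deposited 1 table of estimated counts (expected counts, not scaled to depth) per Ensembl gene for 27 libraries; 14.7% of values were not whole. Per the labels' protocols, polyadenylated RNA was selected and libraries were made with a TruSeq kit not described as strand-specific. The submitters' processing notes name GRCm38, mm10, FastQC 0.11.5 and DESeq2, without their roles. The aligner, the counting program and the annotation are not given in the sources used here.

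Symbols came from GENCODE M21 (GRCm38), which named 42462 of 43346 IDs. Counts were rounded and tested in R 4.3.3 with edgeR 4.0.16: filterByExpr by strain, TMM factors (0.722 to 1.23) and a quasi-likelihood fit with strain as the only factor. An F test covered all strains, and a contrast set every strain against the mean of the other 8. P-values were adjusted by Benjamini-Hochberg over 14482 genes and called under 0.05; standard errors come from the F statistic. The step was run on simulated data with the same dispersion for every gene, so it does not test calls of genes whose libraries spread more. Intervals and floors (3 counts) cover counting error only, and PCR copies are not independent molecules. Chi-square per degree of freedom between libraries of a strain was 24.4 to 135, so no 2 were the same library.

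The 10 genes, 10 pathway lists and 7 marker lists were chosen with earlier results of these data known. Named genes were the 10 members, other Sult genes with over 10 counts in a library, Papss1 and Papss2, in each pathway list the 3 called genes of at least 1 CPM with the largest strain range, and for each member the 3 most correlated genes; some genes that this rule names are not reported here. Cholangiocyte and lymphocyte marker sums reached 9.7 and 11.6 CPM. Promoters came from RefSeq (GRCm38.p6). Alternatives were DESeq2 1.42.0, other size factors, filters, pseudocounts and gene lengths, no rounding, a replicate block and leaving out each library.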

Additional observations from a re-analysis of the deposited data

How the results depend on the processing

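All 10 genes passed the F test over strains under every alternative tried. Of 90 comparisons of a gene in a strain with the other 8 strains, 58 were called. Of these, 37 were called under every alternative and 21 were lost under at least 1, of which 5 were lost under an alternative other than leaving out a library; 1 further comparison was called only on leaving out a library. On leaving out each library in turn, the number of the 10 genes called ran from 4 to 7 in A/J, 4 to 8 in WSB/EiJ, 2 to 3 in C57BL/6J, 7 to 8 in CAST/EiJ, 4 to 6 in DBA/2J, 4 to 6 in NZO/HlLtJ, 8 to 9 in PWK/PhJ, 5 to 6 in 129S1/SvImJ and 4 to 5 in NOD/ShiLtJ. The cause of the changes was not tested; fewer libraries leave less information. Of the 132 genes on the pathway lists, not all of which were tested, 110 were called, with 105 to 116 under all alternatives. Of all genes tested, 74.2% were called by the same F test as reported.

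The sign changed in 12 comparisons, none of them called.
Sult1a1 in CAST/EiJ had a log2 fold change of -0.18 and -0.50 to 0.04 on leaving out a library. Sult1b1 in PWK/PhJ had a log2 fold change of 0.02 and -0.10 to 0.18 on leaving out a library. Sult1b1 in WSB/EiJ had a log2 fold change of 0.02 and 0.00 to 0.05 on leaving out a library, -0.01 with upper-quartile factors and -0.01 with the replicate block. Sult1c2 in C57BL/6J had a log2 fold change of 0.04 and -0.07 to 0.21 on leaving out a library. Sult1c2 in NZO/HlLtJ had a log2 fold change of -0.05 and -0.20 to 0.05 on leaving out a library. Sult1d1 in C57BL/6J had a log2 fold change of 0.03 and -0.04 to 0.13 on leaving out a library. Sult1d1 in DBA/2J had a log2 fold change of -0.08 and -0.21 to 0.01 on leaving out a library. Sult1d1 in NZO/HlLtJ had a log2 fold change of 0.02 and -0.06 to 0.12 on leaving out a library. Sult2a1 in 129S1/SvImJ had a log2 fold change of 0.20 and -0.11 to 0.44 on leaving out a library. Sult2a8 in DBA/2J had a log2 fold change of -0.05 and -0.22 to 0.13 on leaving out a library. Sult5a1 in NZO/HlLtJ had a log2 fold change of -0.24 and -0.51 to 0.04 on leaving out a library. Sult5a1 in 129S1/SvImJ had a log2 fold change of 0.05 and -0.26 to 0.28 on leaving out a library and -0.09 with the replicate block.

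Replicate numbers did not pair libraries: of 76 pairs with the same number in 2 strains, 17 had a correlation of deviations over 0.1, and 7 of 26 libraries correlated best with their own number. With the replicate block 10 of 10 genes still passed over strains; the count was 4 in place of 6 in DBA/2J, where Sult1e1 (1.48, edgeR adjusted p = 0.0764) and Sult2a1 (-1.35, adjusted p = 0.0532) were lost, and 7 in place of 8 in CAST/EiJ, where Sult1d1 (-0.47, adjusted p = 0.15) was lost. It was the same in the other 7 strains. Depth limits levels under about 0.1 CPM, where a library holds a few counts.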
